A study of Homo sapiens with 28 samples.

Results

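The Mediator and RNA polymerase II genes are the 43 genes whose symbol is MED with a number, POLR2 with a letter from A to M, or CCNC, CDK8 or CDK19. They were chosen by symbol from the 16482 genes of a table of all reads, and the same 43 are among the 13029 genes of a second table that counts reads carrying a T read as C (T>C reads). There were 33 Mediator genes, 7 of the head, 9 of the middle, 9 of the tail, 7 of the kinase module and the scaffold gene MED14, and 10 polymerase genes, of which 6 serve RNA polymerase II only and 4 (POLR2E, POLR2F, POLR2H and POLR2K) encode subunits also used by RNA polymerases I and III. POLR2I, POLR2J and POLR2L were not analysed here.

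MDA-MB-453 cells, an established human breast cancer line with luminal features, were kept for 3 h in one of 5 conditions. These were DMSO, the BET bromodomain inhibitors JQ1 and IBET151, and JQ1-VHL and IBET151-VHL, which by their names carry a ligand of the ubiquitin ligase VHL. The protocol, given alike for every library, DMSO included, has 0.1 mM 4-thiouridine added for the last 60 min, so that RNA made in that time can give T>C reads. Drosophila S2 cells were mixed in at 10% before digitonin parted a cytoplasmic supernatant from a nuclear pellet. The 3′ ends of polyadenylated RNA were sequenced in 28 libraries, 3 for each condition and fraction except 2 for IBET151 in each fraction. Doses are not in the labels, and the labels do not say whether replicates were separate cultures, so p-values measure the spread between libraries, which may be technical.

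Mediator is the large complex that carries signals from DNA-bound activators to RNA polymerase II at promoters. Its head and middle contact the polymerase, its tail is the main contact for activators, MED14 runs through all of these as a scaffold, and a separable kinase module of CDK8 or CDK19, cyclin C, MED12 and MED13 (or their paralogs MED12L and MED13L) can dock on the core. BET proteins bind acetylated chromatin and act with Mediator and elongation factors in recruiting and releasing the polymerase.

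Cytoplasmic libraries held 30647584 to 68475299 reads, of which 82264 to 379401 were T>C reads, and nuclear libraries held 17851589 to 38658448 reads, of which 214725 to 1928012 were T>C reads. The nuclear T>C percentage in DMSO was 8.02, 6.34 and 2.25 in replicates 1 to 3, a wider spread than in the cytoplasm, where it was 0.818, 0.782 and 0.747. All 10 luminal epithelial markers sought were in the table, at means of 4410 to 45838 in cytoplasmic DMSO libraries. Of 4 stromal markers in the table COL1A1 stood at 1620 and the rest at no more than 1.43, and the 4 immune and 2 endothelial markers had means of at most 31.3. As the cells were measured in bulk, fewer cells with an RNA and less RNA per cell cannot be told apart.

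In the cytoplasm, all reads of a set of head and middle subunits fell, and no member rose with any drug in the fit reported here. Under other settings POLR2A passed as higher with JQ1 (median-ratio scaling, or a block for inferred runs of the numbers in the library titles), POLR2A and MED26 with IBET151 (median-ratio scaling) and CDK8 with IBET151 (without DMSO replicate 2). The count that fell was 5 of 43 with JQ1, where 4% of 12470 genes tested fell, 9 with JQ1-VHL (12.5% of genes), 2 with IBET151 (1.62%) and 11 with IBET151-VHL (15.4%). The shares of members, 11.6%, 20.9%, 4.65% and 25.6%, were each above that of all genes, but the median log2 change of the 43 members lay near that of all genes: -0.17 against -0.13 with JQ1, -0.19 against -0.17 with JQ1-VHL, 0.06 against 0.00 with IBET151 and -0.23 against -0.15 with IBET151-VHL. A gene was counted when its adjusted p was under 0.05 in a limma fit of log2(value + 1), where a value is the deposited read count scaled to ERCC RNA. That RNA was added per mass of RNA, so changes with a drug, here and below, are relative to RNA mass and not per cell. The 4 comparisons share the same DMSO libraries.

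In the head 3 of 7 genes fell with JQ1, 5 with JQ1-VHL, 2 with IBET151 and 5 with IBET151-VHL. MED18, which pairs with MED20 in a movable part of the head, had values of 952, 1125 and 613 in the DMSO libraries. They were 299.8, 325 and 175 with JQ1, 232, 324 and 236 with JQ1-VHL, 384 and 292 with IBET151 and 143, 156 and 104 with IBET151-VHL. Every treated library lay under every DMSO library, and those of IBET151-VHL lay under those of the other drugs. The log2 change was -1.75 ± 0.28 (SE), adjusted p = 0.00262 with JQ1, -1.73 ± 0.28 (SE), adjusted p = 0.00091 with JQ1-VHL, -1.37 ± 0.32 (SE), adjusted p = 0.0332 with IBET151 and -2.71 ± 0.28 (SE), adjusted p = 1.16e-05 with IBET151-VHL. Its partner MED20 did not pass with any drug, with changes from -0.27 to 0.23.

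MED22, a head subunit that pairs with MED11, followed the same course. Its values were 509.6, 409 and 328 in DMSO, 191, 198 and 163 with JQ1, 131, 192 and 169 with JQ1-VHL, 189 and 209 with IBET151 and 139.9, 126 and 123 with IBET151-VHL, so no treated library reached a DMSO library. The change was -1.15 ± 0.21 (SE), adjusted p = 0.00572 with JQ1, -1.33 ± 0.21 (SE), adjusted p = 0.000694 with JQ1-VHL, -1.04 ± 0.23 (SE), adjusted p = 0.0295 with IBET151 and -1.65 ± 0.21 (SE), adjusted p = 6.83e-05 with IBET151-VHL. MED11 gave changes of -0.39 to -0.19 and did not pass. MED8, which anchors other head subunits, was at 1592, 1941 and 1523 in DMSO, 917, 1121 and 975 with JQ1, 736, 843 and 870.5 with JQ1-VHL, 1048 and 1026 with IBET151 and 621, 769 and 729.6 with IBET151-VHL. Again the groups did not overlap with DMSO. It fell by 0.74 with JQ1, 1.04 with JQ1-VHL and 1.25 with IBET151-VHL on the log2 scale, and its change with IBET151 was -0.69 ± 0.18 (SE), adjusted p = 0.0563.

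MED17, the central subunit of the head, passed only with the VHL-linked compounds. Its values were 422, 710.0 and 436 in DMSO, 209, 303 and 358 with JQ1-VHL and 216, 262 and 254 with IBET151-VHL, against 524, 467 and 433 with JQ1 and 514 and 481 with IBET151. The changes were -0.84 ± 0.23 (SE), adjusted p = 0.028 and -1.06 ± 0.23 (SE), adjusted p = 0.00506 with the linked compounds, and -0.10 ± 0.23 and -0.03 ± 0.26 with JQ1 and IBET151. MED6, a head subunit that touches the middle, was at 1032, 1461 and 885 in DMSO, 521, 766 and 669 with JQ1-VHL and 509, 684 and 600.2 with IBET151-VHL, with changes of -0.77 ± 0.22 (SE), adjusted p = 0.0283 and -0.89 ± 0.22 (SE), adjusted p = 0.00956. With JQ1 its change of -0.79 ± 0.22 had an adjusted p of 0.0507.

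**Figure D1:**
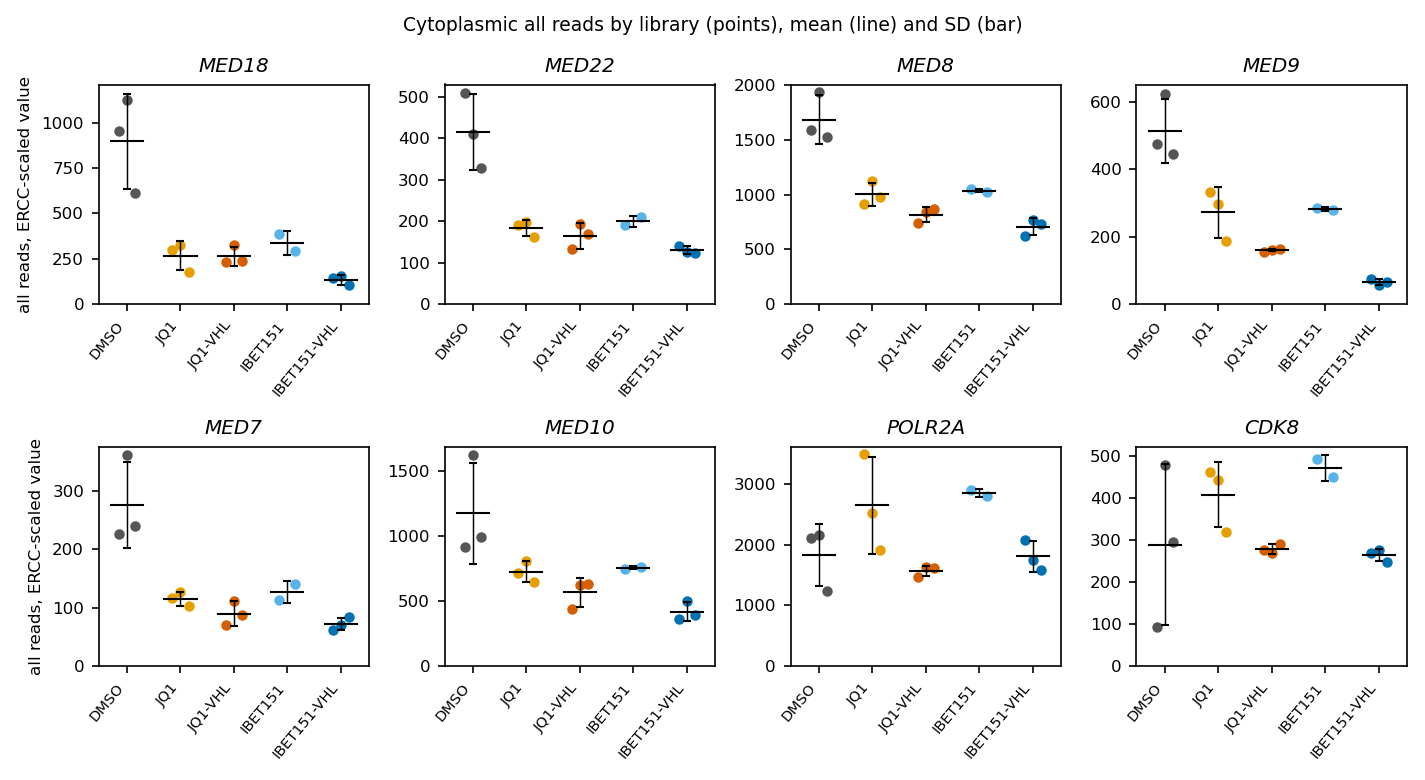
Cytoplasmic all reads of 8 members by library, as ERCC-scaled values on linear axes from 0, with 1 point per library, a line at the mean and a bar of 1 SD over 3 libraries (2 for IBET151). For MED18, MED22, MED8, MED9 and MED7 every treated library lies under every DMSO library, whereas POLR2A and CDK8 of JQ1 and IBET151 reach above or into the DMSO range.

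In the middle, 3 of 9 genes carried the change. MED9, a small subunit that associates with MED4, stood at 474, 622 and 445 in DMSO, at 333, 295 and 187 with JQ1 and 285 and 278 with IBET151, and at 156, 159 and 163 with JQ1-VHL and 72.6, 55.3 and 65.6 with IBET151-VHL. The 3 levels did not overlap: DMSO above the 2 inhibitors, and these above the linked compounds. The change with IBET151-VHL, -2.97 ± 0.23 (SE), adjusted p = 8.2e-07, had the smallest adjusted p among the members, and that with JQ1-VHL was -1.67 ± 0.23 (SE), adjusted p = 0.000223. With JQ1 it was -0.94 ± 0.23 (SE), adjusted p = 0.0265, and with IBET151 -0.85 ± 0.25 (SE), adjusted p = 0.11.

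MED7, which forms a hinge of the middle with MED21, was at 226, 360.5 and 239.6 in DMSO, 117, 127 and 103 with JQ1, 70.4, 112 and 87.6 with JQ1-VHL, 113 and 140.3 with IBET151 and 62.5, 70.0 and 84.1 with IBET151-VHL. All treated libraries lay under DMSO, with changes of -1.22 ± 0.25 (SE), adjusted p = 0.0105, -1.59 ± 0.25 (SE), adjusted p = 0.000571, -1.09 ± 0.27 (SE), adjusted p = 0.051 and -1.89 ± 0.25 (SE), adjusted p = 7.97e-05 in that order. MED21 itself did not pass, at -0.29 to 0.10. MED10, which sits at the joint of head and middle, had 913, 1618 and 987 in DMSO, 438, 626 and 634 with JQ1-VHL and 364, 499.6 and 391 with IBET151-VHL, and fell by 1.02 and 1.45 on the log2 scale with these compounds. In this fit MED1, the main contact of nuclear receptors, did not pass with any drug (-0.52 with IBET151-VHL, adjusted p = 0.0763), nor did MED26, which binds elongation factors (0.39 with JQ1 and 0.66 with IBET151). MED1 passed as lower with IBET151-VHL when the replicate number was a block (-0.52). With the block of title numbers it passed with JQ1 (-0.43), JQ1-VHL (-0.49) and IBET151-VHL (-0.62).

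The promoter sequences of the 4 genes that fell in both fractions with IBET151-VHL (nuclear values below) show what lies ahead of genes that moved together. RefSeq's table of starts on GRCh38.p14 matched 33 of the 43 members and 7 of the 11 that fell in the cytoplasm with IBET151-VHL. The 250 bases ahead of the start are given, 5′ to 3′ on the gene's strand, for MED18 (chr1:28328790-28329039, plus strand), MED7 (chr5:157142866-157143115, minus), MED9 (chr17:17476750-17476999, plus) and MED10 (chr5:6378548-6378797, minus). Capitals mark matches on either strand to CCGGAAG (the core of an ETS site), GGGCGG (GC box, CCGCCC on the other strand) and CCAAT, none of which overlap each other here.
MED18: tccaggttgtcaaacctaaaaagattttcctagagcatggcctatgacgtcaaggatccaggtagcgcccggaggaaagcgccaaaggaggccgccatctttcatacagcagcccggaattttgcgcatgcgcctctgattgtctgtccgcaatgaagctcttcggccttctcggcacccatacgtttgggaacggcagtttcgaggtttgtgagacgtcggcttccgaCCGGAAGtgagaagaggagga
MED7: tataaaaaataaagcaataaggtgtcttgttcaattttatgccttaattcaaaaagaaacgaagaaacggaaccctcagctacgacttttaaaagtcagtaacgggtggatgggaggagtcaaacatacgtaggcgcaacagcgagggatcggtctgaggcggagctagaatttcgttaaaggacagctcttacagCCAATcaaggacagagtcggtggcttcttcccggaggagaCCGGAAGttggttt
MED9: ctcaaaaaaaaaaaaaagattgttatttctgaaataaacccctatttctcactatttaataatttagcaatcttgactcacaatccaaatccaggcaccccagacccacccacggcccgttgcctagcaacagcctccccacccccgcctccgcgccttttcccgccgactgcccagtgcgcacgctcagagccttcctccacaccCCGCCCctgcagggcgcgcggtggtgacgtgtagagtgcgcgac
MED10: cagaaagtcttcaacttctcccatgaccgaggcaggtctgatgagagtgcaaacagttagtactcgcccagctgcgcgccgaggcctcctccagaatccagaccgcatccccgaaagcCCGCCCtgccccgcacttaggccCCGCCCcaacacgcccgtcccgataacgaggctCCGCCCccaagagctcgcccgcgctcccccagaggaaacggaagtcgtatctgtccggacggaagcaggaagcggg
MED18 and MED7 hold CCGGAAG 21 and 14 bases ahead of the start, MED7 also holds CCAAT at 54 bases, MED9 a GC box at 44 bases and MED10 GC boxes at 132, 109 and 76 bases, all 4 on the other strand. Among the 35116 windows of 250 bases in RefSeq's table CCGGAAG stood in 8.52%, and, over every start a member has there, in 4 of the 7 members that fell (MED7, MED15, MED17 and MED18) and in 3 of the other 26. The GC box stood in 42.6% of windows, 5 of the 7 and 17 of the 26, CCAAT in 32.0% of windows, 1 of the 7 and 9 of the 26, and the E-box CACGTG in 6.34% of windows, 0 of the 7 and 2 of the 26. These are matches of letters, counted after the members that fell were known, and not evidence of binding.

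In the tail 2 of 9 genes passed, MED15 and MED23. MED15, a contact of activators such as the sterol-responsive factors, had 2340.2, 2507 and 1535 in DMSO, 1163, 1512 and 1225 with JQ1-VHL and 1256, 1272 and 1175 with IBET151-VHL, with falls of 0.69 and 0.75 on the log2 scale (adjusted p = 0.0214 and 0.00967). MED23, a contact of mitogen-responsive activators, had 502, 512 and 240.1 in DMSO and 239, 187 and 171 with IBET151-VHL, a change of -1.0 ± 0.29 (SE), adjusted p = 0.0268. With JQ1, JQ1-VHL and IBET151 the changes of MED23 were -0.87, -0.84 and -0.89 and did not pass in that fit. They passed with the replicate number as a block (-0.87, -0.84 and -1.09) and with the block of title numbers (-0.87, -0.99 and -0.97). The other 7 tail genes lay between -0.73 (MED30, IBET151-VHL) and 0.24 (MED29, IBET151), and none passed in the fit without a block. MED30 passed as lower with IBET151-VHL under the replicate number as a block (-0.73) and the block of title numbers (-0.85). MED24 passed under the latter (values below). MED14, the scaffold, lay between -0.17 and 0.14.

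Of the kinase module, 1 of 7 genes passed in the fit without a block, and that with 1 drug. MED13, which links the kinase to the core, was at 1657, 2719 and 1183 in DMSO and 1066, 940.5 and 879 with IBET151-VHL, a change of -0.86 ± 0.27 (SE), adjusted p = 0.0405. It also passed with JQ1-VHL when the replicate number (-0.66) or the title numbers (-0.87) were a block. CDK8, the kinase, was at 94.2, 477 and 295 in DMSO, 461, 442 and 318 with JQ1, 276, 269 and 290.4 with JQ1-VHL, 492 and 449 with IBET151 and 269.7, 276 and 247 with IBET151-VHL. DMSO replicate 1 lay under every other library, and the change of 0.98 ± 0.45 with IBET151 did not pass (adjusted p = 0.376) but passed without DMSO replicate 2 (1.49). CDK19, its paralog, ran from 0.06 to 0.36, cyclin C (CCNC) from -0.07 to 0.06, MED12, which activates CDK8, from -0.29 to 0.05, and MED13L from -0.44 to -0.21.

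No polymerase gene passed in cytoplasmic all reads with any drug in the fit without a block, whereas with the block of title numbers POLR2A was higher with JQ1 (0.53), POLR2G lower with JQ1-VHL (-0.29) and POLR2M lower with IBET151-VHL (-0.50), the last also without DMSO replicate 1 (-0.67). POLR2A, the largest subunit and carrier of the C-terminal repeat domain, had 2099, 2151 and 1237 in DMSO, 3494, 2513 and 1918 with JQ1, 1464, 1623 and 1610.2 with JQ1-VHL, 2896 and 2802 with IBET151 and 2080.2, 1751 and 1583 with IBET151-VHL. Both IBET151 libraries lay above all 3 of DMSO, and those of JQ1 overlapped it. The changes were 0.53 ± 0.23 (SE), adjusted p = 0.274 with JQ1 and 0.68 ± 0.26 (SE), adjusted p = 0.253 with IBET151, against -0.18 ± 0.23 and 0.02 ± 0.23 with the linked compounds. Under median-ratio scaling over human genes, which moved the all-gene median with JQ1 from -0.13 to 0.02, POLR2A passed as higher with JQ1 (0.69) and IBET151 (0.69). The 4 shared subunits lay between -0.12 (POLR2E, JQ1) and 0.50 (POLR2K, IBET151), and the stalk subunits POLR2D and POLR2G between -0.36 and 0.12.

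**Figure D2:**
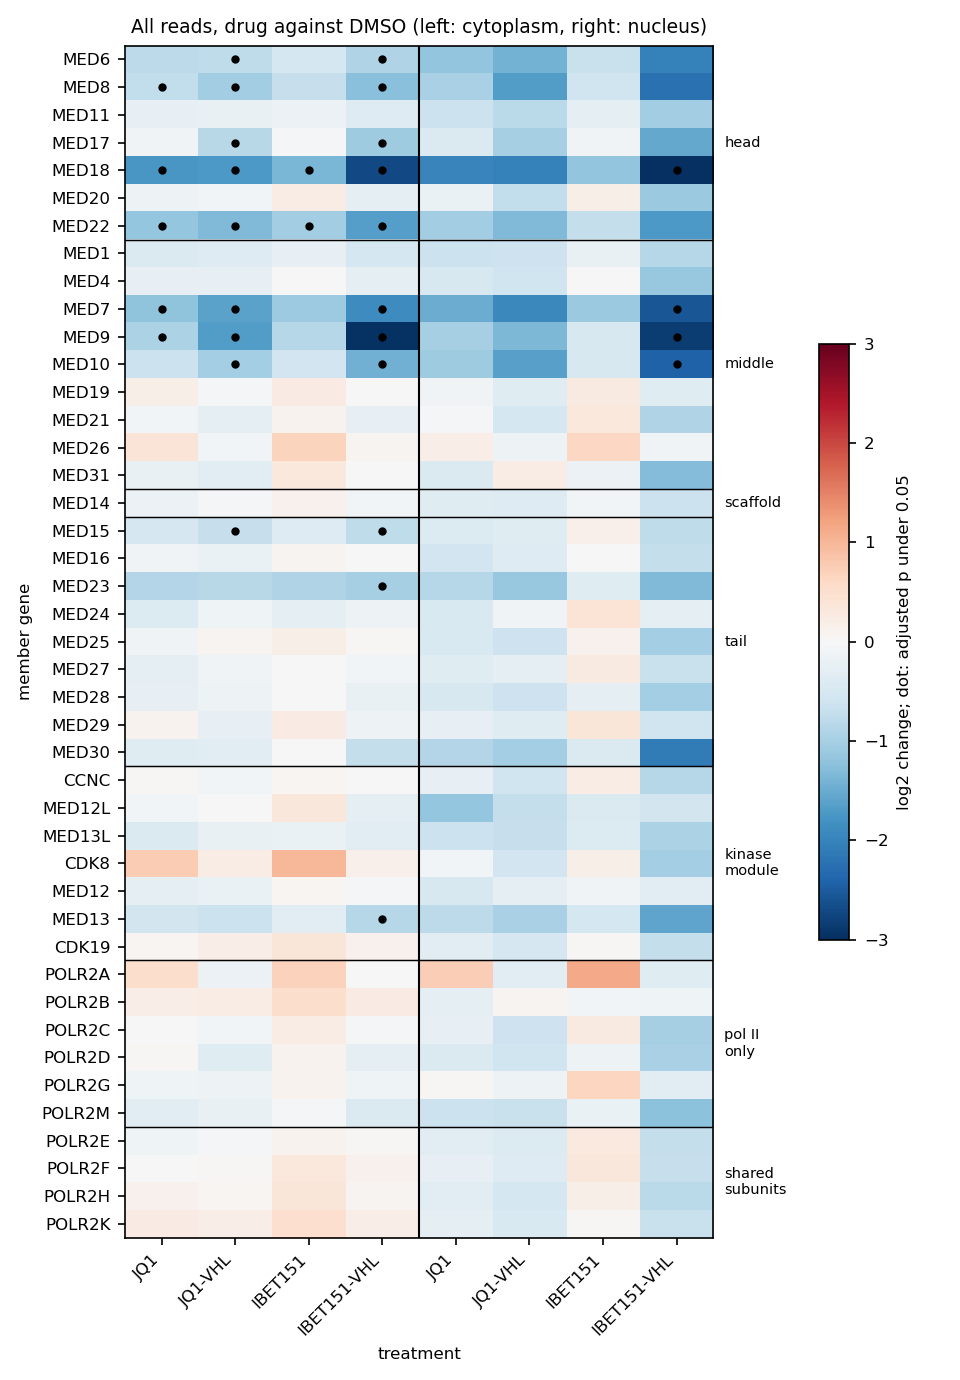
Log2 change of all reads for the 43 members (rows, by role) with each drug against DMSO, cytoplasm in the left 4 columns and nucleus in the right 4, on a colour scale from -3 to 3 with a dot where adjusted p was under 0.05. The dots gather in head genes (MED6, MED8, MED17, MED18, MED22) and in MED7, MED9 and MED10 of the middle, and no polymerase gene has one in this fit, which has ERCC scaling and no block.

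Some of these calls rest on single libraries. MED18, MED22, MED7, MED8 and MED9 with both linked compounds, and MED18, MED22 and MED7 with JQ1, kept their calls under all 12 settings and left-out libraries tried. Without JQ1-VHL replicate 1 the count with JQ1-VHL was 5 in place of 9. With JQ1 it was 8 without DMSO replicate 3 and 3 without JQ1 replicate 3. With IBET151 it was 0 without DMSO replicate 1 or either IBET151 replicate, and 4 without DMSO replicate 3. With the replicate number as a block, the count with JQ1 was 8, and 6.38% of genes fell.

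Each linked compound was next set against its parent at the same time, the doses being unknown. No member passed between JQ1-VHL and JQ1 in cytoplasmic all reads by limma, where 4.23% of genes did. At an unadjusted p under 0.05 there were 3, and edgeR called 0. The largest differences were those of MED17, -0.74 (95% interval -1.24 to -0.24), MED9, -0.73 (-1.21 to -0.24), and POLR2A, -0.71 (-1.21 to -0.21), with adjusted p of 0.117, 0.109 and 0.133. With the replicate block POLR2A passed (1 member, -0.71, where 5.51% of genes were lower), with median-ratio scaling MED9, MED17 and POLR2A passed (5.2% of genes lower), and without JQ1 replicate 3 there were 2. MED18 differed by 0.02 (-0.59 to 0.63).

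Between IBET151-VHL and IBET151, 3 members were lower with the linked compound, where 7.87% of genes were. MED9 differed by -2.12 (-2.66 to -1.58, adjusted p = 0.000127), MED18 by -1.34 (-2.01 to -0.66, 0.0151) and MED17 by -1.03 (-1.59 to -0.47, 0.0226). The call of MED9 held whichever library was left out, while the count was 1 without IBET151 replicate 1, IBET151 replicate 2 or IBET151-VHL replicate 3. POLR2A differed by -0.67 (-1.22 to -0.11) and CDK8 by -0.83 (-1.79 to 0.13), neither past the threshold.

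In the nucleus only IBET151-VHL gave calls in all reads: 4 of 43 members fell, where 3.66% of 14417 genes did. MED18 was at 405, 1330.2 and 1678 in nuclear DMSO libraries and at 25.6, 156 and 112 with IBET151-VHL, a change of -3.64 ± 0.70 (SE), adjusted p = 0.000285. MED9 went from 723, 1196 and 1048 to 86.9, 197 and 137 (-2.86 ± 0.67 (SE), adjusted p = 0.00375). MED7 went from 217, 593 and 636 to 29.5, 118 and 107 (-2.57 ± 0.68 (SE), adjusted p = 0.0123), and MED10 from 505, 1415 and 2158 to 80.7, 289 and 416 (-2.43 ± 0.72 (SE), adjusted p = 0.0305). For none of these did an IBET151-VHL library reach a DMSO library. All 4 also fell in the cytoplasm, and for all 4 replicate 1 was the lowest library in nuclear DMSO and in nuclear IBET151-VHL.

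With the other drugs no member passed in nuclear all reads by limma, against 0.0694% of genes with JQ1, 1.97% with JQ1-VHL and 0.0971% with IBET151. Unadjusted p under 0.05 were found for 2, 5 and 0 members, and edgeR called 0 in each. The values of MED18 were 104, 328 and 430.0 with JQ1, 96.5, 379 and 359.9 with JQ1-VHL and 375 and 484 with IBET151, with changes of -1.98 ± 0.70, -2.03 ± 0.70 and -1.18 ± 0.78. POLR2A was at 3077, 6094 and 7181 in DMSO, 4776, 10254 and 12467 with JQ1, 1891, 5827 and 5984 with JQ1-VHL, 10325 and 12215 with IBET151 and 1991, 6195 and 5244 with IBET151-VHL. Its changes were 0.73 ± 0.77 and 1.13 ± 0.86 with the parents and -0.34 ± 0.77 and -0.35 ± 0.77 with the linked compounds.

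These nuclear counts depend on how the libraries are aligned. Same-numbered libraries of DMSO, JQ1, JQ1-VHL and IBET151-VHL deviated together, and with the replicate number as a block 9 members fell with JQ1 (9.54% of genes), 11 with JQ1-VHL (23.4%) and 30 with IBET151-VHL (43.7%), the first 2 sets both including MED18, MED7, MED22, MED6, MED8, MED9 and MED10. All genes moved as well, by a median of -0.43, -0.48 and -0.71 log2 units. Median-ratio scaling brought these medians to 0.02, 0.06 and 0.07, and then gave 4 members with JQ1 (2 higher, 2 lower), 6 with JQ1-VHL (all lower), 2 with IBET151 (1 higher, 1 lower) and 11 with IBET151-VHL (2 higher, 9 lower). Of all genes 2.02%, 2.81%, 1.74% and 5.13% were then higher and 2.27%, 6.11%, 2.24% and 9.49% lower. POLR2A was among the higher with JQ1 (1.17) and IBET151 (1.09), and MED18 among the lower with JQ1 (-1.53) and JQ1-VHL (-1.49). Without IBET151-VHL replicate 1, DMSO replicate 2 or DMSO replicate 3 the count with IBET151-VHL was 2, MED18 and MED9 remaining, and without DMSO replicate 1 that with JQ1-VHL was 2.

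Between the compounds in the nucleus 0 members passed by limma for JQ1-VHL against JQ1 (0.298% of genes) and 0 for IBET151-VHL against IBET151 (0.541%), with 0 and 5 at an unadjusted p under 0.05 and 0 by edgeR in both. MED9 differed by -2.38 (-3.87 to -0.89) and MED18 by -2.46 (-4.01 to -0.90) between IBET151-VHL and IBET151. POLR2A differed by -1.07 (-2.59 to 0.45) between JQ1-VHL and JQ1, and passed there with the replicate block (1 member, 3.88% of genes lower) and under median-ratio scaling (1 member, -0.98, 3.49% of genes lower). Under median-ratio scaling 4 members were lower with IBET151-VHL than with IBET151, MED9 (-1.56), MED10 (-1.12), MED18 (-1.64) and POLR2A (-0.66), where 3.44% of genes were, and both block fits gave more.

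T>C reads, which include those of RNA labelled in the last 60 min, fell for most members with the linked compounds, as for most genes. The mean T>C percentage of all cytoplasmic reads was 0.782 in DMSO, 0.544 with JQ1, 0.288 with JQ1-VHL, 0.616 with IBET151 and 0.249 with IBET151-VHL. In the cytoplasm 35 members had enough T>C reads to be tested. The count that fell was 29 with JQ1-VHL (82.8% of 6300 genes) and 32 with IBET151-VHL (88.3%), against 4 with JQ1 (20.1%) and 2 with IBET151 (6.76%). The member medians were -2.71 and -3.21 with the linked compounds, beside -2.42 and -2.89 for all genes, and -1.18 and -0.65 with JQ1 and IBET151, beside -0.97 and -0.60. For genes with no T>C read in a group the size of the fall is not known, and the fitted change depends on the pseudocount. There were 2 such members with JQ1-VHL (MED6 and MED15) and 2 with IBET151-VHL (MED7 and MED20). Setting such genes to 3 reads over the group makes their falls smaller. The member medians were then -2.70 and -3.21, and those of all genes -2.31 and -2.70.

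Examples from each role show the size. MED8 of the head had cytoplasmic T>C values of 28.2, 43.1 and 32.6 in DMSO, 11.1, 20.6 and 11.6 with JQ1, 2.68, 3.62 and 0 with JQ1-VHL, 13.3 and 19.1 with IBET151 and 1.35, 0 and 0 with IBET151-VHL. MED1 of the middle had 59.6, 106 and 54.3 in DMSO, 4.02, 12.7 and 20.8 with JQ1-VHL and 5.38, 3.46 and 3.58 with IBET151-VHL. For both, the linked compounds lay under all DMSO libraries, and the changes were -3.77 ± 0.60 (SE), adjusted p = 5.32e-06 and -4.72 ± 0.60 (SE), adjusted p = 7.96e-08 for MED8, and -2.64 ± 0.50 (SE), adjusted p = 4.08e-05 and -3.81 ± 0.50 (SE), adjusted p = 1.31e-07 for MED1. POLR2F, a shared subunit, went from 35.4, 27.0 and 17.6 in DMSO to 0, 1.81 and 0.743 with JQ1-VHL and 0, 0 and 1.19 with IBET151-VHL, with changes of -3.97 ± 0.57 and -4.36 ± 0.57. Its all reads changed by 0.04 and 0.12 with these compounds and did not pass. POLR2A went from 23.3, 22.0 and 5.17 to 0, 3.62 and 3.71 and 3.36, 0 and 0, with changes of -2.44 ± 0.68 and -3.21 ± 0.68.

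The kinase genes themselves had few cytoplasmic T>C reads. CDK8 had 4.83, 11.0 and 1.55 in DMSO, 2.01, 1.81 and 6.68 with JQ1-VHL and 5.38, 1.73 and 0 with IBET151-VHL, overlapping with DMSO, and changes of -0.48 ± 0.72 and -1.12 ± 0.72 that did not pass. CDK19 changed by -0.68 ± 0.66, which did not pass, and -1.85 ± 0.66, which did. With IBET151-VHL, CDK8 passed under the block of title numbers (-1.69), and the call of CDK19 was lost with edgeR. In the nucleus the T>C reads of both genes fell with IBET151-VHL. With JQ1 1 kinase module gene was called in cytoplasmic T>C reads, CCNC, from 8.86, 11.0 and 5.69 in DMSO to 0.852, 0.794 and 1.12 (-2.27 ± 0.61 (SE), adjusted p = 0.012), a call lost with edgeR and without DMSO replicate 2. Cytoplasmic T>C reads of MED13 changed by -1.40 with JQ1 (adjusted p = 0.0522) and passed with edgeR (-1.50), both blocks and a pseudocount of 5.

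**Figure D3:**
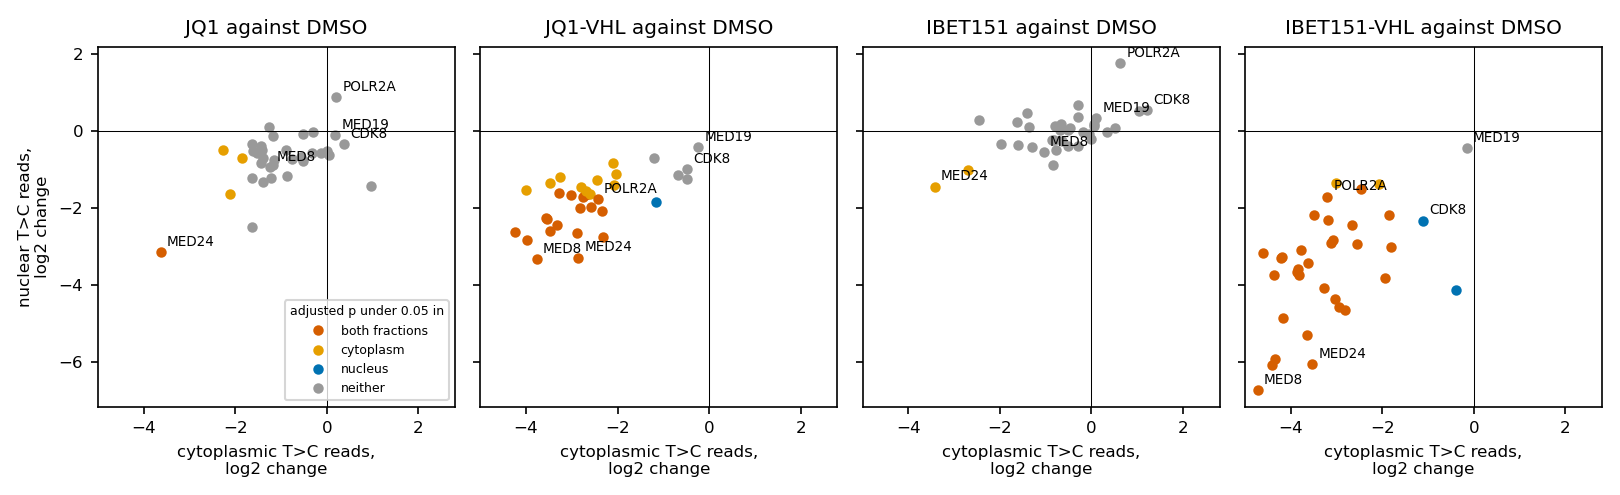
Log2 change of T>C reads in the cytoplasm (x) and the nucleus (y) for the members tested in both fractions, 1 panel per drug, 1 point per member, coloured by the fractions in which adjusted p was under 0.05. With JQ1-VHL and IBET151-VHL most points lie at low values on both axes while MED19 stays near 0, and MED24 is lowest on the cytoplasmic axis with JQ1 and IBET151.

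In the nucleus 42 members could be tested for T>C reads. With JQ1-VHL 24 fell (60.5% of 12059 genes) and with IBET151-VHL 37 (83.9%), against 1 with JQ1 (2.29%) and 0 with IBET151 (1.3% of genes in either direction, 2 members at an unadjusted p under 0.05 by limma and 0 by edgeR). The member medians with the linked compounds were -1.71 and -3.22, beside -1.92 and -3.12 for all genes. All 7 head genes fell with IBET151-VHL, from -6.75 (MED8) to -2.17 (MED17), as did 6 of 7 kinase module genes and all 10 polymerase genes. MED8 went from 116, 214 and 134 in DMSO to 0, 1.73 and 0, and POLR2A from 245, 463 and 113 to 26.4, 154 and 87.3. Under median-ratio scaling POLR2A (-0.94, adjusted p = 0.176), POLR2B (-0.73, adjusted p = 0.252) and CDK19 (-1.42, adjusted p = 0.0748) no longer passed with IBET151-VHL. POLR2A with JQ1 (385, 854 and 252) and IBET151 (1015 and 631) had the highest changes among the members, 0.89 ± 0.68 (SE), adjusted p = 0.559 and 1.77 ± 0.76 (SE), adjusted p = 0.397, neither past the threshold. The count with JQ1-VHL rests on single libraries, being 9 without JQ1-VHL replicate 1 and 7 without DMSO replicate 2, and was 11 under median-ratio scaling (34.5% of genes lower).

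MED24, a tail subunit, had the lowest cytoplasmic T>C changes of the members tested with JQ1 and IBET151. Its cytoplasmic T>C values were 29.0, 12.7 and 7.24 in DMSO (36, 15 and 14 reads), 0, 0.794 and 0 with JQ1, 4.02, 0 and 0.743 with JQ1-VHL, 0.951 and 0 with IBET151 and 0, 0 and 1.19 with IBET151-VHL. It was the one member whose cytoplasmic T>C reads fell with all 4 drugs, with changes of -3.63 ± 0.66 (SE), adjusted p = 0.000733 with JQ1, -2.86 ± 0.66 (SE), adjusted p = 0.000383 with JQ1-VHL, -3.43 ± 0.74 (SE), adjusted p = 0.00585 with IBET151 and -3.53 ± 0.66 (SE), adjusted p = 2.55e-05 with IBET151-VHL. In the nucleus its values were 455, 922 and 234 in DMSO, 34.3, 148 and 25.7 with JQ1, 12.1, 108 and 73.3 with JQ1-VHL, 191 and 149 with IBET151 and 2.33, 17.3 and 4.48 with IBET151-VHL. Libraries of all 4 drugs lay under those of DMSO. The nuclear change was -3.15 ± 0.73 (SE), adjusted p = 0.00287 with JQ1, -3.29 ± 0.73 (SE), adjusted p = 0.000127 with JQ1-VHL and -6.06 ± 0.73 (SE), adjusted p = 2.57e-14 with IBET151-VHL, while that with IBET151, -1.44 ± 0.82, did not pass. All reads of MED24 did not pass in the fit without a block: cytoplasmic values were 15861, 8702 and 6009 in DMSO and 9991, 7619 and 7774 with IBET151-VHL, and the changes with the 4 drugs ran from -0.41 to -0.12. With the block of title numbers they passed as lower in the cytoplasm with JQ1 (-0.41), JQ1-VHL (-0.37) and IBET151-VHL (-0.42). Of all genes 11.1%, 26.3% and 28.1% were then lower. In the nucleus they passed with JQ1 under that block (-0.46, 32.7% of genes lower). The nuclear call with JQ1 was lost without JQ1 replicate 1 or 3, without DMSO replicate 2 and under median-ratio scaling, the count then being 0, and the cytoplasmic call with IBET151 was lost without IBET151 replicate 2, the count then being 1, and with edgeR, the count then being 0.

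MED19, a middle subunit at the junction with the head, did not pass in any comparison of T>C reads or share. T>C reads were 20.9, 15.4 and 13.3% of its cytoplasmic reads in DMSO, where the median of the 35 members was 1.31%, and 16.9, 15.8 and 16.4% with JQ1, 15.6, 15.7 and 11.9% with JQ1-VHL, 16.0 and 13.6% with IBET151 and 16.9, 14.8 and 12.2% with IBET151-VHL. Its T>C values were 733, 603 and 383 in DMSO and 723, 487 and 345 with IBET151-VHL, overlapping throughout. The T>C changes were 0.19 ± 0.28, -0.23 ± 0.28, 0.11 ± 0.31 and -0.16 ± 0.28 with JQ1, JQ1-VHL, IBET151 and IBET151-VHL in the cytoplasm and -0.44 ± 0.68 with IBET151-VHL in the nucleus, none past the threshold. In the nucleus the share was 22.6, 19.7 and 15.0% in DMSO and 19.7, 18.2 and 16.0% with IBET151-VHL. Among the 6299 genes with a cytoplasmic share MED19 ranked 33 from the top in DMSO, and among the 12046 with a nuclear share it ranked 1056. No library without 4-thiouridine is used here, so conversions present without the label cannot be told from it, and the cause of the steady share was not tested.

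The share of T>C reads sets them against a member's own total. In the cytoplasm it fell for 27 of 35 members with JQ1-VHL (76.2% of genes) and 29 with IBET151-VHL (82.2%), 2 with JQ1 (7.79%: MED24 and CCNC) and 1 with IBET151 (3.73%: MED24). The median member kept 15.3% of its DMSO share with JQ1-VHL and 7.58% with IBET151-VHL, beside 15.3% and 6.44% for all genes, and 58.7% with JQ1 and 65.8% with IBET151, beside 53.7% and 65.1%. In the nucleus the median member kept 50.1% with JQ1-VHL and 18.6% with IBET151-VHL, beside 40.5% and 17.1%. There 31 of 42 members fell with IBET151-VHL (67.1% of genes), 1 with JQ1-VHL (9.44%: MED24), and 0 with JQ1 (0.0166% in either direction) or IBET151 (0.0249%), where limma gave 1 and 0 members at an unadjusted p under 0.05 and edgeR called 0. With JQ1-VHL, edgeR called 10 members as lower in nuclear share (37.4% of genes). The replicate block gave 10 (40.1%) and the block of title numbers 29 (67.2%). The limma count with JQ1-VHL in the nucleus ran from 0 to 16 over left-out libraries, the highest without DMSO replicate 3 and 0 without DMSO replicate 1 or 2 or any JQ1-VHL replicate. With IBET151-VHL it was 16 without DMSO replicate 1 and 19 without DMSO replicate 2.

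**Figure D4:**
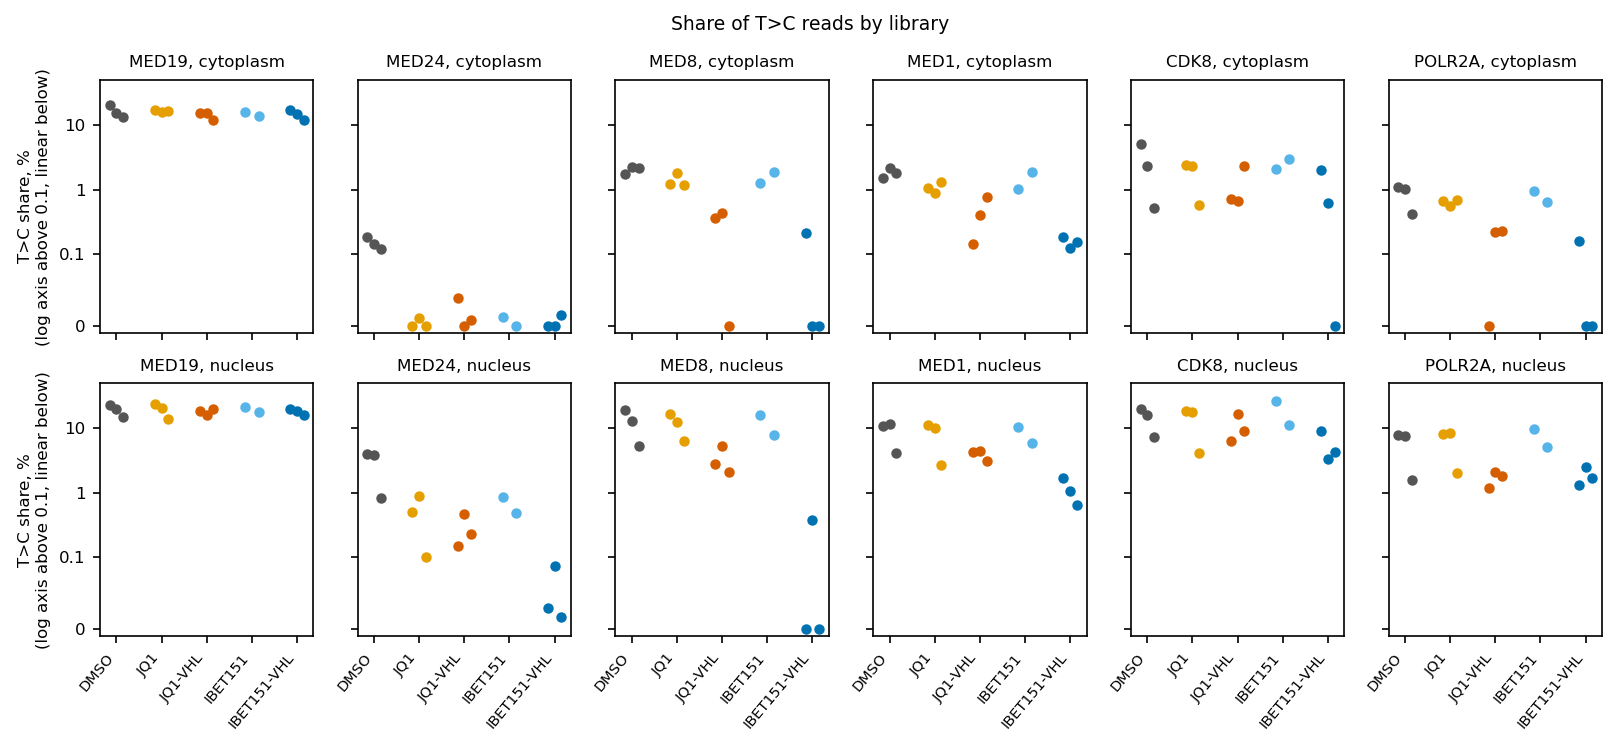
Share of T>C reads in each library for 6 members, in percent on a log axis above 0.1 and a linear axis below, cytoplasm in the upper row and nucleus in the lower, 1 point per library. MED19 stays between 11.9% and 20.9% in the cytoplasm whatever the treatment, and MED8, MED1 and POLR2A drop with JQ1-VHL and IBET151-VHL. MED24 lies near 0 with every drug in the cytoplasm. Its share there was already low in DMSO, under the member median of 1.31%. It kept 2.24% of that share with JQ1, 11.4% with JQ1-VHL, 3.9% with IBET151 and 2.94% with IBET151-VHL.

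Untreated cells held these RNAs in the 2 fractions unevenly. In DMSO, 10 of 43 members had more all reads in the nuclear than in the cytoplasmic libraries (47.9% of 14458 genes did) and MED31 had fewer (0.539%). The nuclear minus cytoplasmic difference had a median of 0.28 log2 units over the members and 1.26 over all genes. It was largest for MED23 (2.78 ± 0.50, values 2075, 3097 and 3108 against 502, 512 and 240.1), MED13L (2.24 ± 0.48) and MED12L (2.11 ± 0.51), followed by POLR2B, the second largest polymerase subunit (2.09 ± 0.56), MED13 (2.04 ± 0.51), MED12 (1.92 ± 0.51), MED17 (1.88 ± 0.51), POLR2A (1.53 ± 0.54), CDK19 (1.39 ± 0.49) and MED14 (1.32 ± 0.53). By role, 5 of 7 kinase module genes were higher in the nucleus, with a median of 1.92, while the 4 shared polymerase subunits had a median of -0.85 and none passed. MED31, a small subunit of the middle, had 13.9, 31.8 and 47.9 in the nucleus and 86.9, 95.4 and 80.2 in the cytoplasm (-1.62 ± 0.58). Neighbours in this order mostly differ by less than their standard errors.

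ERCC RNA was added per mass of RNA, so the levels of the fractions are relative, and median-ratio scaling moved the all-gene median from 1.26 to 0.14. Then 8 members were higher and 24 lower in the nucleus, with MED23, MED13L, MED12L, POLR2B, MED13, MED12, MED17 and POLR2A still among the higher. The difference went with the length of the gene: over the 43 members log10 gene span in RefSeq and the nuclear minus cytoplasmic difference had a Pearson r of 0.63 and a Spearman rho of 0.67, beside 0.30 and 0.33 over 13914 genes, as a description of points that share the same libraries. MED12L, MED13L, CDK19, CDK8 and MED13 spanned 351, 319, 206, 151 and 123 kb, but MED27 with 220 kb differed by 0.05 only. POLR2F, with a span of 88.3 kb that overlaps SOX10 and C22orf23 among others, lay at -1.03. No member's drug effect was called as different between the fractions by limma, with 0 of 43 for each drug at an adjusted and at an unadjusted p under 0.05. Of 14458 genes 0% to 0.00692% were called at an adjusted p under 0.05. This fit pools the spread of both fractions and called almost no gene, so it cannot show that the drug effects were alike in them.

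**Figure D5:**
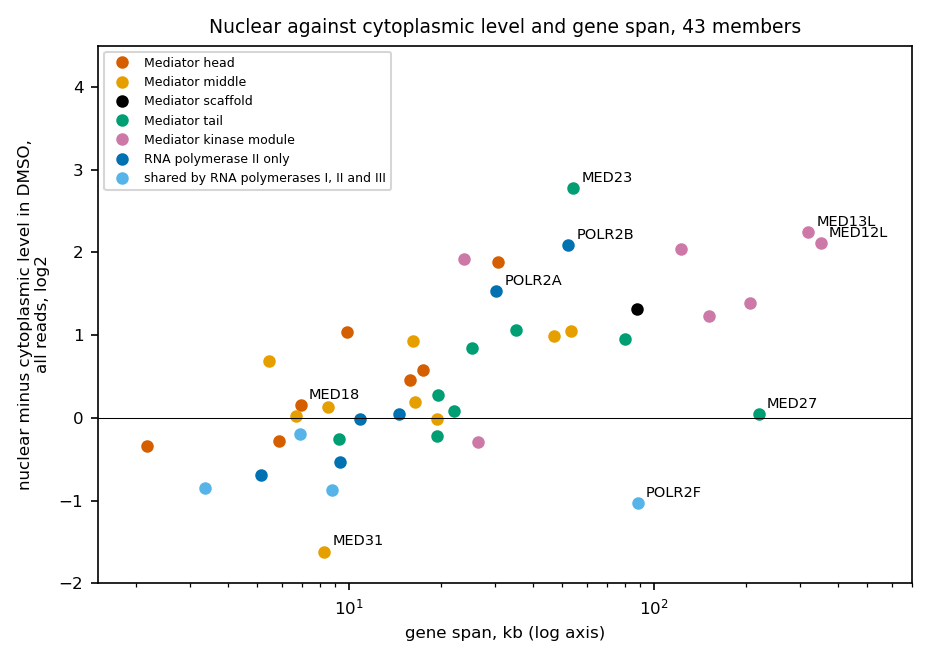
Nuclear minus cytoplasmic level of all reads in DMSO (y, log2) against the span of the gene in RefSeq (x, kb, log axis) for the 43 members, 1 point per gene coloured by role. MED12L and MED13L of the kinase module have the longest spans and differences of 2.11 and 2.24, MED31 lies lowest at -1.62, and MED27 is long with a difference near 0.

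Other genes of the transcription machinery, listed by role and not by how they moved, went both ways. Of 29 general transcription factor genes tested in cytoplasmic all reads, 1 rose with JQ1 and 1 with IBET151, in both cases GTF2B, which positions the polymerase at the start site (1.07 ± 0.26 (SE), adjusted p = 0.0296 and 1.40 ± 0.29 (SE), adjusted p = 0.0195), and 2 fell with JQ1-VHL and 3 with IBET151-VHL. Of all genes 0.818% rose with JQ1 and 0.898% with IBET151, and 4%, 12.5%, 1.62% and 15.4% fell with JQ1, JQ1-VHL, IBET151 and IBET151-VHL. Those that fell were the TFIID subunits TAF5 (-1.42 and -1.95) and TAF7 (-0.77 and -0.78), and GTF2E1 with IBET151-VHL (-1.15). Of 24 genes for polymerase assembly and its C-terminal domain, 2, 5, 2 and 5 fell with JQ1, JQ1-VHL, IBET151 and IBET151-VHL, among them SCAF8 with each drug, which binds that domain (-1.36, -1.31, -1.43 and -1.81). Of 18 genes for subunits of RNA polymerases I and III only, 2, 7, 0 and 7 fell, such as POLR1F (-1.01 with JQ1-VHL and -1.32 with IBET151-VHL) and POLR3D (-1.04 and -0.98), while the 4 subunits these enzymes share with RNA polymerase II did not pass. The medians of the 3 lists with IBET151-VHL were -0.10, -0.08 and -0.53, beside -0.15 for all genes and -0.23 for the members.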

How the data were processed

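Both tables hold signal values for each gene and library that the authors deposited: whole reads multiplied by 1 factor per library, scaled to ERCC RNA per the file headers and values. Dividing by that factor gave whole reads for 100% of values within 0.001. The submitters' processing notes name bcl2fastq, Trimmomatic 0.39, HISAT2, HTSeq and DESeq2, and list GRCh37, hg19 and dm3 as builds. The T>C calling method and the strand setting of the counting are not given in the sources used here. Members whose spans overlap other genes, and those with pseudogene copies (MED6, MED14, MED15, MED28, CDK8), are therefore less certain. The overlapping ones include MED8, MED4, MED14, POLR2M, MED11, MED12L, MED20, MED23, MED28, MED31, CCNC, CDK19, POLR2B, POLR2C, POLR2E and POLR2F.

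Values were tested with limma 3.58.1 (R 4.3.3) on log2(value + 1), over genes at 10 or more (5 for T>C reads) in at least 2 libraries, with Benjamini-Hochberg adjustment over all genes and a threshold of 0.05. Each drug fit used the 14 libraries of a fraction, and the fit of differences between fractions all 28. Fold changes on this scale understate low genes. The T>C share was tested as log2((T>C + 1)/(all + 1)). edgeR 4.0.16 on recovered reads, a pseudocount of 5, no filter, median-ratio scaling, a replicate block, a block of title numbers and leaving out each library were alternatives. The block of title numbers groups the number at the head of each title into 4 runs, 927 to 937, 939 to 949, 953 to 961 and 963 to 973. These runs were inferred, and no label says what they are. The numbers have gaps within runs, and that from 964 to 972 in the last is wider than any gap between runs. The last run holds only DMSO and JQ1, the run before it only JQ1-VHL, IBET151 and IBET151-VHL, and the first lacks IBET151. In the last run the nuclear T>C percentage was 2.25 in DMSO and 1.94 with JQ1. Drug and run are thus partly confounded and cannot be fully told apart. The fits were tested on simulated data. Same-numbered libraries of DMSO, JQ1, JQ1-VHL and IBET151-VHL deviated together in all reads (lowest correlation 0.203 in the cytoplasm, 0.159 in the nucleus), as did nuclear and cytoplasmic DMSO (0.105) and nuclear T>C reads of JQ1 and DMSO (0.234). Of 26 pairs of replicates none agreed within sampling noise. The members and lists were chosen with earlier results of these data known. Per comparison the text names up to 8 members with the smallest p that passed, 10 members set by role, up to 4 genes of each other list, and those at a range's end. MED6, MED15 and MED23 were also named outside the 8, and MED11, MED20 and MED21 as partners of members that passed, after their values were seen.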

Additional observations from a re-analysis of the deposited data

How the results depend on the processing

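Of 185 member counts under other settings 136 stayed within 1.5 times the value reported, as did 177 of 212 with 1 library left out. The causes of the shifts were not tested. In what follows J, JV, I and IV stand for JQ1, JQ1-VHL, IBET151 and IBET151-VHL against DMSO, and JV/J and IV/I for a linked compound against its parent. With the replicate number as a block the members called in cytoplasmic all reads were 8 (J), 6 (I), 1 (JV/J) and 5 (IV/I), in nuclear all reads 9 (J), 11 (JV), 2 (I, both higher), 30 (IV), 1 (JV/J) and 38 (IV/I), in nuclear T>C reads 2 (J) and in nuclear T>C share 10 (JV). Of all genes 6.38%, 3.24%, 5.51% and 8.44% were then lower in cytoplasmic all reads, in the same order. In nuclear all reads 9.54% (J), 23.4% (JV), 43.7% (IV), 3.88% (JV/J) and 64.8% (IV/I) were lower and 4.99% (I) higher. In nuclear T>C reads 4.07% (J) were lower, and in nuclear share 40.1% (JV). The pairing was not shown for IBET151 or for most T>C comparisons. By title number, IBET151 replicates 1 and 2 stand in the runs of replicates 2 and 3 of the linked compounds. The replicate block thus sets IBET151 beside libraries of other runs, and the counts for I and IV/I rest on that pairing. Replicate 3 of the linked compounds also stands in another run than replicate 3 of DMSO and JQ1. The counts for JV, IV and JV/J with this block therefore pair libraries across runs too. Same-numbered IBET151 and DMSO libraries had correlations of 0.0498 and -0.396 in the cytoplasm and 0.429 and -0.188 in the nucleus. With the runs of title numbers as a block, an inferred grouping, they were 12 (J, 1 higher), 14 (JV), 8 (I), 3 (JV/J) and 6 (IV/I) in cytoplasmic all reads, 0 in cytoplasmic share (I), 20 (J, 1 higher), 24 (JV), 15 (I, 1 higher), 35 (IV), 1 (JV/J) and 15 (IV/I) in nuclear all reads, 3 (J), 41 (JV) and 2 (I) in nuclear T>C reads and 29 in nuclear share (JV). With median-ratio scaling the members called were 7 (I, 2 higher) and 3 (JV/J) in cytoplasmic all reads, 4 (J, 2 higher), 6 (JV), 2 (I, 1 higher), 11 (IV, 2 higher), 1 (JV/J) and 4 (IV/I) in nuclear all reads, 0 (J) and 11 (JV) in nuclear T>C reads, and 32 (8 higher) between the fractions in DMSO. Of all genes 3.34% (I) and 5.2% (JV/J) were then lower in cytoplasmic all reads, and 1.75% (I) higher. In nuclear all reads 2.27%, 6.11%, 2.24%, 9.49%, 3.49% and 3.44% were lower, and 2.02% (J), 1.74% (I) and 5.13% (IV) higher. In nuclear T>C reads 0.696% and 34.5% were lower. Between the fractions 29.1% of genes were higher in the nucleus and 26.8% lower. edgeR gave 0 in cytoplasmic T>C reads (I, 0.984% of genes lower), 1 (J, 3.97%) and 0 (I, 0.603%) in cytoplasmic share and 10 in nuclear share (JV, 37.4%). Without a filter cytoplasmic all reads gave 1 (I, 1.04% of genes lower). A pseudocount of 5 gave 17 (J, 39.4%) and 7 (I, 19.1%) in cytoplasmic T>C reads, 6 (J, 17.7%) and 2 (I, 8.43%) in cytoplasmic share and 2 (J, 7.06%) in nuclear T>C reads.

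With 1 library left out, cytoplasmic all reads gave 3 to 8 (J), 5 to 12 (JV), 0 to 4 (I), 9 to 12 (IV), 0 to 2 (JV/J) and 1 to 4 (IV/I), and nuclear all reads 0 to 2 (JV) and 2 to 6 (IV). Cytoplasmic T>C reads gave 1 to 5 (J), 26 to 29 (JV), 1 to 2 (I) and 28 to 33 (IV), and nuclear T>C reads 0 to 1 (J), 7 to 32 (JV) and 34 to 39 (IV). Cytoplasmic share gave 1 to 4 (J), 25 to 27 (JV), 0 to 1 (I) and 27 to 30 (IV), nuclear share 0 to 16 (JV) and 16 to 39 (IV), and the fractions in DMSO 8 to 16. The shares of all genes with 1 library left out are not given here, so these ranges show only how far the counts move. The cytoplasmic T>C count with JQ1 was 1 without DMSO replicate 2, and that with IBET151 was 1 without DMSO replicate 1, DMSO replicate 2 or IBET151 replicate 2. The cytoplasmic share count with JQ1 was 1 without DMSO replicate 1 and 4 without JQ1 replicate 2, and that with IBET151 was 0 without DMSO replicate 1.

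Signs turned for MED18 in cytoplasmic T>C share with IBET151-VHL at a pseudocount of 5 (0.10), and under median-ratio scaling for MED26 (0.66) and POLR2B (0.65) in nuclear all reads with IBET151-VHL. Between the fractions in DMSO, that scaling turned MED10 (-1.11), MED18 (-0.98), MED19 (-1.01), MED20 (-0.68), MED21 (-0.95), MED25 (-1.06), MED27 (-1.09), MED30 (-0.86), MED6 (-0.57) and POLR2D (-1.09). T>C depth was lowest in the cytoplasm, at 82264 reads, where several members had no T>C read in some libraries.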
